A study of Rattus norvegicus with 5 samples.

Results

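The epidermal growth factor (EGF) receptor module of the rat cornea is described here across 5 RNA-sequencing libraries of whole corneas. Its 9 genes, 9 of the 20339 in the gene table, were listed by symbol, with earlier results of these data known. They were the receptors Egfr and Erbb2, the ligands Hbegf, Tgfa, Epgn, Ereg, Areg and Btc, and the feedback inhibitor Errfi1. All 9 had a row of their own, and all 9 were among the 13304 genes that passed the filter on low counts. Transgenic P1 hMR rats (2 corneas), which carry and overexpress human NR3C2, the gene of the mineralocorticoid receptor, were compared with wild-type rats (3 corneas). All rats were males of the Sprague-Dawley background and 6 months old, and genotype is the only difference the labels name. What drives the transgene, how many founder lines there were and the time of day of dissection are not given in the sources used here. The labels do not say whether each library is a separate rat, so p-values measure the spread between these libraries, part of which may be technical.

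The EGF receptor is a membrane tyrosine kinase that dimerizes when a ligand binds, either with itself or with ERBB2, which has no known ligand of its own. Its ligands are made as membrane-bound precursors and are cut loose by metalloproteases such as ADAM17. Amphiregulin (Areg), TGF-alpha (Tgfa) and epigen (Epgn) bind the EGF receptor, while HB-EGF (Hbegf), betacellulin (Btc) and epiregulin (Ereg) also bind ERBB4. In the corneal epithelium this receptor is known for driving cell migration and division after a wound, with HB-EGF shed by the epithelium itself. Receptor signalling through ERK raises transcription of several ligands and of Errfi1 (MIG6), which binds the kinase domain and shuts it down.

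Betacellulin, amphiregulin, epiregulin and epigen are encoded next to each other. In RefSeq's rat assembly GRCr8 the order on chromosome 14 was Btc, Areg, Ereg and Epgn, with no other annotated gene among these 4. RefSeq promoter sequences of this assembly matched 8 of the 9 genes (not Ereg), and were searched over the 250 bases before each annotated start, on both strands. The 3 windows of this cluster are shown because these neighbouring genes differed in their values below. Capitals mark every match to the motifs searched.

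Areg, GRCr8 chr14:17265642-17265891, minus strand: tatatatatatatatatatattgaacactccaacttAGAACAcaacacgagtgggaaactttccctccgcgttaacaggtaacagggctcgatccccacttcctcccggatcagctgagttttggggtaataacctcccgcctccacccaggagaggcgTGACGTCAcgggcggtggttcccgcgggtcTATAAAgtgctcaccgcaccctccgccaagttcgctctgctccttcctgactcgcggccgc

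Epgn, GRCr8 chr14:17369001-17369250, minus strand: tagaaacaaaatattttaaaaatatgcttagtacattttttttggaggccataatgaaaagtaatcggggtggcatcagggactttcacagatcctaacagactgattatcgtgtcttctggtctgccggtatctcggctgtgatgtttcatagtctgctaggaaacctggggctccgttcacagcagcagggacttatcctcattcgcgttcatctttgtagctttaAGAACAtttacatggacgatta

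Btc, GRCr8 chr14:16992418-16992667, plus strand: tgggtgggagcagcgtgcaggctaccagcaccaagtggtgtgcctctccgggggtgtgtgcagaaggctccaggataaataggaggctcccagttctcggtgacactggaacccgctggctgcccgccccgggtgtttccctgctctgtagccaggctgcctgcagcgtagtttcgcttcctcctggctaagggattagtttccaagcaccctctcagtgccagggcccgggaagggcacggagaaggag

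The motifs were the element shared by mineralocorticoid and glucocorticoid receptors (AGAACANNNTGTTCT), its half-site AGAACA, which lies within the full element, the cAMP response element TGACGTCA, the AP-1 site TGANTCA and the TATA box TATAAA. Areg held a half-site 214 to 209 bases before its start, a cAMP response element at 91 to 84 bases and a TATA box at 61 to 56 bases. Epgn held 1 half-site, 22 to 17 bases before its start, and Btc held no match. Among the other windows only that of Errfi1 had a match, a TATA box 35 to 30 bases before the start. Of all 33469 promoter windows of this length, 0.012% held the full element, 17.5% the half-site, 1.59% the cAMP response element, 6.34% the AP-1 site and 12.9% the TATA box. A match is a description of letters, not evidence of binding.

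The libraries matched their labels. Human NR3C2 had 1094 and 1146 counts in transgenic corneas 1 and 2 and 0 in each wild-type cornea. Gene-table totals were 20874010 to 30449675 counts per library. Krt12, the keratin that defines corneal epithelium, stood at 45510 and 32250 CPM (counts scaled to a common library size, with TMM normalization) in transgenic corneas and 37490, 45090 and 38580 CPM in wild-type corneas. The mean log2 level of 13 tested corneal epithelial markers, relative to the wild-type mean, was 0.00 and -0.10 in transgenic corneas and -0.04, 0.06 and -0.03 in wild-type corneas. In 2 of these 13 both transgenic values lay below all wild-type values, against 10.7% of all genes. Of 9 tested stromal markers, 7 had both transgenic values above all wild-type values. So had all 7 tested pigment-cell and iris markers and 4 of 6 tested corneal endothelial markers, against 12.0% of all genes. In each of these lists 0 markers passed edgeR's adjusted test. Summed marker levels were 2795 and 3032 CPM (stroma) and 76.3 and 146 CPM (pigment) in transgenic corneas, against 2258 to 2350 CPM and 6.66 to 43.0 CPM in wild-type corneas. These are whole tissues, so fewer cells of a type and less RNA per cell cannot be told apart, and the part of other cells in the values below was not tested.

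No gene of the module passed the test between genotypes. In edgeR's quasi-likelihood test over 13304 genes, with Benjamini-Hochberg adjustment and a threshold of 0.05, 0 of 9 were called, where 0.00752% of all genes were called (the transgene alone). DESeq2 and limma voom also called 0 of 9. At an unadjusted p under 0.05 there was 1 of 9, Areg, lower in transgenic corneas, against 6.32% of all genes at that p (4.39% higher and 1.93% lower). All 6 ligands, Egfr and Errfi1 had a log2 fold change below 0 (transgenic over wild-type), 8 of 9 in all, against 51.8% of all genes. The median of the 9 was -0.21, and that of all genes tested -0.01. Without wild-type cornea 1 the number below 0 was 6 of 9, and with each gene set against the epithelial markers of its own library it was 7 of 9, since Egfr then stood at 0.01. On that epithelial scale the difference of mean log2 levels was -0.59 for Areg, -0.42 for Hbegf and -0.24 for Ereg, against -0.64, -0.47 and -0.29 unscaled. In 2 of 9 genes, Areg and Btc, both transgenic values lay below all wild-type values, against 10.7% of all genes.

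**Figure D1:**
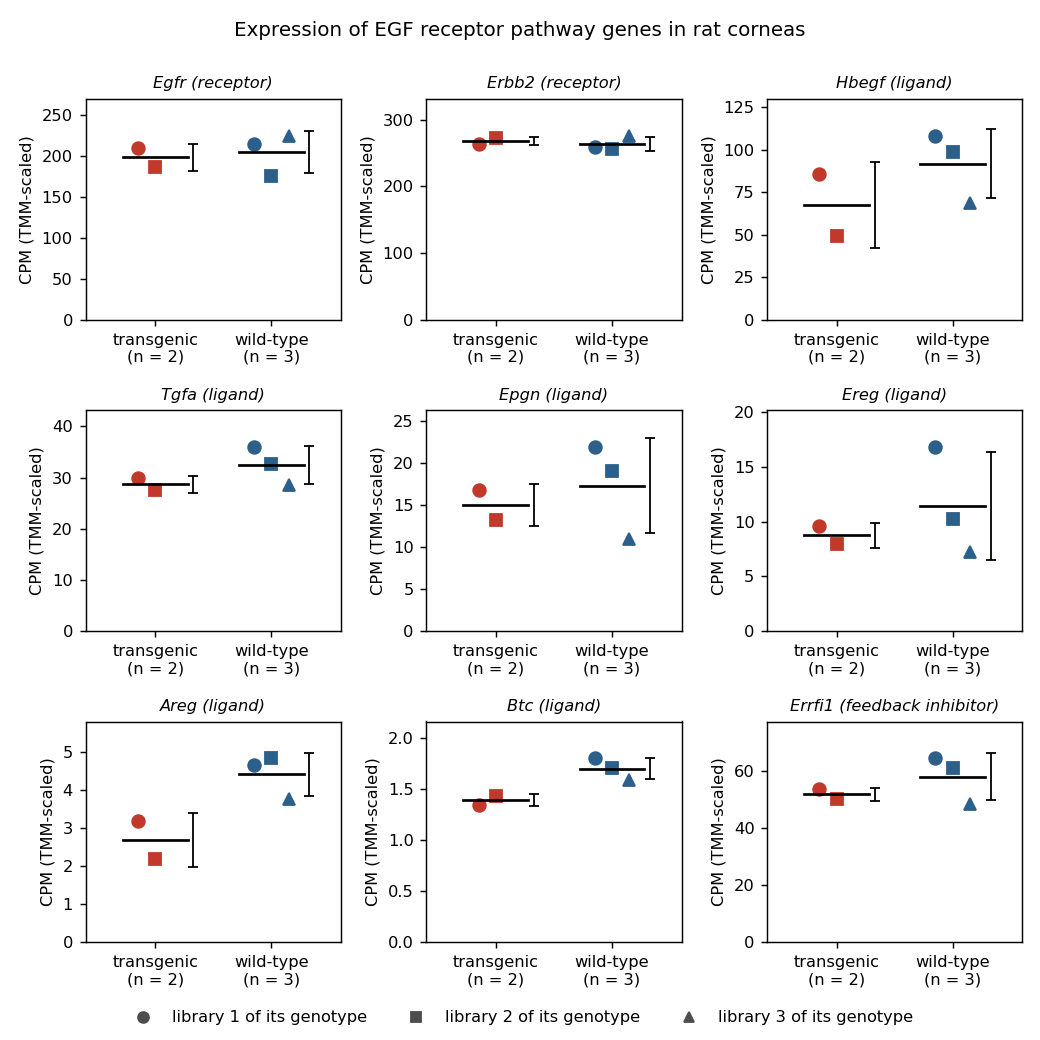
TMM-scaled CPM of each gene in 2 transgenic (red, left) and 3 wild-type (blue, right) corneas; symbols give the library number within its genotype, which pairs no animals, horizontal lines are means and the bars beside them ± SD. In Areg and Btc both red points lie below all blue points; in the other 7 genes the groups overlap.

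Neither receptor passed the test, and the groups overlapped in both. Egfr, the receptor for all 6 ligands, had 210 and 187 CPM in transgenic corneas 1 and 2, against 215, 176 and 225 CPM in wild-type corneas 1 to 3. Both transgenic values lay inside the wild-type range. Its log2 fold change was -0.05 ± 0.12 (SE; edgeR adjusted p = 0.967), and the 95% interval of the fold, 0.800 to 1.17, bounds the size of a difference that these libraries leave possible. The sign of this value turned without wild-type cornea 3 (0.03) or transgenic cornea 2 (0.04).

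Erbb2, the partner receptor, varied least of the 9. It had 264 and 273 CPM in transgenic corneas and 259, 256 and 276 CPM in wild-type corneas, so that the highest library exceeded the lowest by a factor of 1.08. Among the 500 tested genes nearest to it in mean level, 3.6% had a smaller SD over the 5 libraries. The log2 fold change was 0.03 ± 0.09 (SE; edgeR adjusted p = 0.975), with a 95% interval of the fold of 0.882 to 1.18. The ratio of Egfr to Erbb2 counts, not scaled for transcript length, was 0.796 and 0.685 in transgenic corneas and 0.830, 0.687 and 0.815 in wild-type corneas. The spread of that ratio followed Egfr, whose values crossed genotypes.

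Among the ligands, amphiregulin had the smallest p. Areg had 83 and 69 counts, or 3.20 and 2.20 CPM, in transgenic corneas, against 129, 99 and 83 counts, or 4.66, 4.85 and 3.78 CPM, in wild-type corneas. Both transgenic corneas were below every wild-type cornea, though transgenic cornea 1 and wild-type cornea 3 were close: their 95% Poisson intervals, which cover counting error only, were 2.55 to 3.97 and 3.01 to 4.69 CPM. Means were 2.70 ± 0.710 CPM (SD, n = 2) in transgenic and 4.43 ± 0.569 CPM (SD, n = 3) in wild-type corneas. The log2 fold change of -0.72 ± 0.28 (SE) had an unadjusted p of 0.0268 and did not pass (edgeR adjusted p = 0.731), ranking 486 of 13304 genes by p. When single libraries were left out, the log2 fold change ran from -1.01 (without transgenic cornea 1) to -0.47 (without transgenic cornea 2). Over all 10 alternatives the adjusted p ran from 0.406 to 1.00.

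HB-EGF, the ligand of corneal wound closure, had the most ligand counts and differed widely within each genotype. Hbegf had 85.6 and 49.5 CPM in transgenic corneas 1 and 2, against 108, 98.6 and 68.9 CPM in wild-type corneas 1 to 3. Transgenic cornea 2 was the lowest library, while transgenic cornea 1 lay inside the wild-type range. The 2 transgenic corneas differed by a factor of 1.73 and wild-type corneas 1 and 3 by 1.57, and the ratio of group means was 0.735. Its log2 fold change was -0.45 ± 0.32 (SE; edgeR adjusted p = 0.865), and -0.10 without transgenic cornea 2 or -0.89 without transgenic cornea 1. Among the 500 genes nearest in mean level, 98.8% had a smaller SD over the libraries.

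Epiregulin and epigen, neighbours on the chromosome, were both highest in wild-type cornea 1. Ereg had 9.56 and 7.96 CPM in transgenic corneas, against 16.8, 10.2 and 7.24 CPM in wild-type corneas 1 to 3. Epgn had 16.7 and 13.2 CPM in transgenic corneas, against 21.9, 19.1 and 10.9 CPM in wild-type corneas. For both genes the wild-type range enclosed both transgenic values, with wild-type cornea 1 highest and wild-type cornea 3 lowest of the 5. Wild-type cornea 1 exceeded cornea 3 by a factor of 2.32 for Ereg and 2.00 for Epgn. Log2 fold changes were -0.39 ± 0.35 and -0.21 ± 0.30 (SE; edgeR adjusted p = 0.882 and 0.925). Without wild-type cornea 1 they were 0.01 and 0.00, so the sign of both rested on that library. Without wild-type cornea 3 they were -0.63 and -0.45.

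TGF-alpha, the ligand that skin and eyelid development are known to need in mice, varied less. Tgfa had 29.9 and 27.5 CPM in transgenic corneas and 36.0, 32.7 and 28.6 CPM in wild-type corneas. Only wild-type cornea 3 lay between the transgenic values. Its log2 fold change was -0.18 ± 0.12 (SE; edgeR adjusted p = 0.860), with a 95% interval of the fold of 0.730 to 1.07.

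Betacellulin, which also binds ERBB4, was near the limit of what these depths can resolve. Btc had 35 and 45 counts, or 1.35 and 1.43 CPM, in transgenic corneas and 50, 35 and 35 counts, or 1.81, 1.71 and 1.59 CPM, in wild-type corneas. Although the groups did not overlap, the 95% Poisson interval of transgenic cornea 1, 0.940 to 1.88 CPM, held every wild-type value. Counting error alone is 14.1% to 16.9% at these counts, against an observed coefficient of variation of 6.23% among wild-type corneas. The log2 fold change was -0.29 ± 0.34 (SE; edgeR adjusted p = 0.907), so a difference was not detectable at this depth.

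Errfi1, the feedback inhibitor that ERK signalling is known to induce, had 53.6 and 50.4 CPM in transgenic corneas and 64.5, 61.1 and 48.6 CPM in wild-type corneas. Wild-type cornea 3 was again the lowest of the 5. Its log2 fold change was -0.16 ± 0.13 (SE; edgeR adjusted p = 0.871), with a 95% interval of the fold of 0.734 to 1.09.

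**Figure D2:**
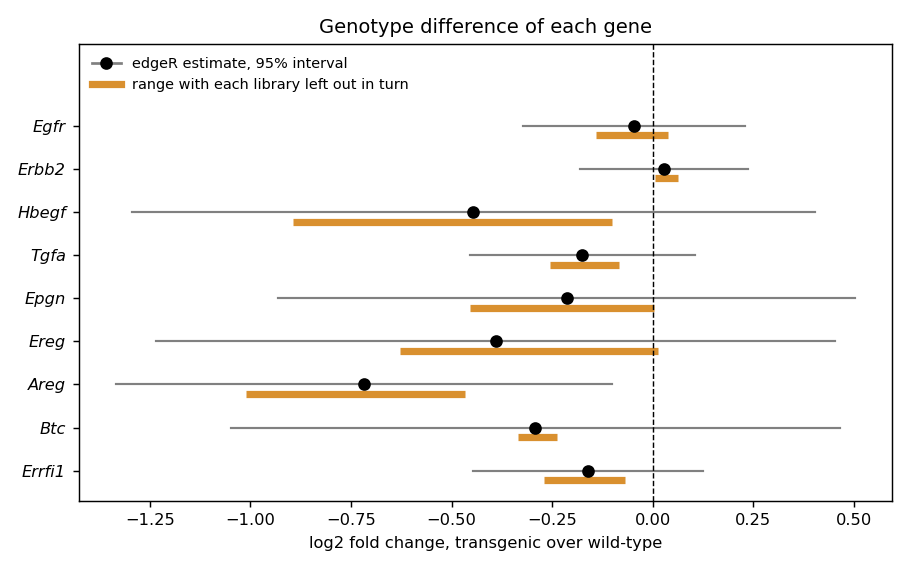
Log2 fold change (transgenic over wild-type) of each gene by edgeR with its 95% interval (points and thin lines), and the range when each of the 5 libraries is left out in turn (orange bars). Only the unadjusted interval of Areg, -1.34 to -0.10, excludes 0, and the orange bars of Egfr, Epgn and Ereg reach across it.

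The 9 genes ran in several orders over the libraries. Wild-type cornea 1 was the highest of the 5 libraries in 6 of the 9 genes, 5 of them ligands, where it was highest in 18.8% of all tested genes. Neither transgenic cornea was highest in any of the 9, where transgenic corneas 1 and 2 were highest in 15.2% and 23.1% of all tested genes. Lowest values came from transgenic cornea 2 in 3 genes, wild-type cornea 3 in 3, wild-type cornea 2 in 2 and transgenic cornea 1 in 1. Of all tested genes, these libraries were lowest in 23.4%, 15.9%, 23.9% and 17.6%, in the same order. Among the receptors, Egfr and Erbb2 were both highest in wild-type cornea 3.

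Similarity of profiles was measured as the root mean square difference between log2(CPM + 0.5) values, each centred on its mean over the 5 libraries; a smaller value means a closer profile. Over 36 pairs it ran from 0.05 to 0.44. Tgfa and Errfi1, a ligand and the inhibitor of its receptor, were the closest pair at 0.05. Among 12123 other genes of at least 1 CPM, Errfi1 ranked 45 in closeness to Tgfa, and Tgfa ranked 33 in closeness to Errfi1. Next came Tgfa and Btc (0.09), Btc and Errfi1 (0.11), Egfr and Erbb2 (0.12) and Erbb2 and Btc (0.14). Genes that vary little lie close to many others by this measure: Btc ranked only 6215 in closeness to Erbb2. Further down, Ereg and Epgn differed by 0.17, and Areg and Hbegf by 0.18. Ereg had the largest SD of the 9 (0.45). Epgn ranked 26 in closeness to it, while Areg, which lies between Btc and Ereg, ranked 1907 and Btc 1557. The 5 genes closest to Ereg over these 5 libraries were Afap1l2 (0.11), Bach2 (0.12), Ighm (0.13), Medag (0.13) and LOC298795 (0.13), all with their highest value in wild-type cornea 1. With 5 points, such closeness is a description only.

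**Figure D3:**
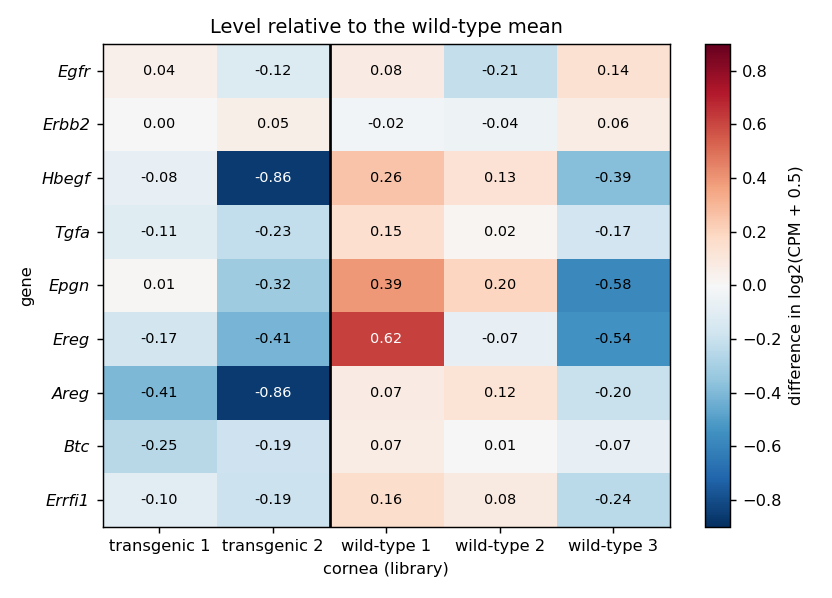
Difference of log2(CPM + 0.5) from the wild-type mean for each gene (down) and cornea (across), with transgenic corneas left of the line; red is higher and blue lower. Ligands and Errfi1 are red in wild-type corneas 1 and 2, apart from Ereg in wild-type cornea 2 (-0.07), and blue in wild-type cornea 3 and transgenic cornea 2, while Erbb2 runs from -0.04 to 0.06.

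Clock genes also varied between the libraries. A clock score, which subtracts the mean log2 level of 5 circadian genes of one phase (such as Cry1 and Clock) from that of 8 of the other (such as Dbp and Per2), picked after their values were seen, was 0.74 and 1.76 in transgenic corneas 1 and 2 and -1.32, 0.19 and 1.12 in wild-type corneas 1 to 3. Of the 9 genes, 2 (Hbegf and Tgfa) ran in exactly the reverse order over all 5 libraries, as did 1.81% of all tested genes. Ereg, Epgn and Errfi1 differed from the reverse order only in that wild-type cornea 3 lay below transgenic cornea 2. How many of all genes came this close was not counted. Egfr, Erbb2, Areg and Btc ran in other orders. The ligand sum, given below and led by Hbegf, also ran in exactly the reverse order. The part of the clock in the ligand values was not tested.

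Summed over the 6 ligands, transcripts came to 146 and 102 CPM in transgenic corneas and 189, 167 and 121 CPM in wild-type corneas. Transgenic cornea 1 lay inside the wild-type range and transgenic cornea 2 below it. Means were 124 ± 31.5 CPM (SD, n = 2) in transgenic and 159 ± 34.8 CPM (SD, n = 3) in wild-type corneas, a difference close to 1 SD. Without Hbegf the sums were 60.8 and 52.3 CPM in transgenic corneas and 81.1, 68.6 and 52.1 CPM in wild-type corneas. The 2 receptors summed to 475 and 460 CPM in transgenic and 475, 432 and 500 CPM in wild-type corneas, which overlapped throughout.

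The make-up of the ligand counts differed between libraries, and which one stood apart depended on the ligand. Hbegf gave 58.5% and 48.6% of ligand counts in transgenic corneas, against 57.1%, 59.0% and 56.9% in wild-type corneas. Tgfa gave 20.4% and 27.0% in transgenic corneas and 19.0% to 23.6% in wild-type corneas. Areg gave 2.19% and 2.16% in transgenic corneas, below its 2.46% to 3.12% in wild-type corneas. Ereg gave 6.53% and 7.82% in transgenic corneas and 8.87%, 6.12% and 5.98% in wild-type corneas, highest in wild-type cornea 1. Epgn gave 11.4% and 12.9% in transgenic corneas and 11.6%, 11.4% and 9.03% in wild-type corneas, lowest in wild-type cornea 3. Longer transcripts yield more counts, so these shares compare libraries and not the abundance of 1 ligand against another.

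**Figure D4:**
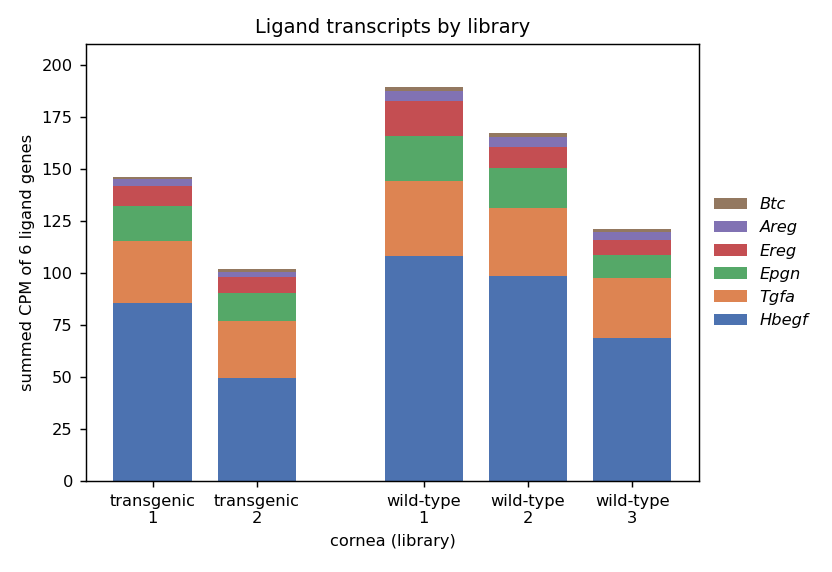
Summed TMM-scaled CPM of the 6 ligand genes in each cornea, stacked by gene; heights of different genes are not scaled for transcript length. Transgenic cornea 2 (102 CPM) is lowest and wild-type cornea 1 (189 CPM) highest, with transgenic cornea 1 (146 CPM) between wild-type corneas 2 and 3.

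As at gene level, no isoform row of the module passed the test. The isoform table held 1 row named for each of the 9 genes, and 8 of these passed the filter. None was called among 27110 isoforms tested with edgeR (0.00% called), and at an unadjusted p under 0.05 there was also none of the 8, against 3.98% of isoforms. For Areg, Epgn, Erbb2 and Hbegf the named isoform held 100% of the gene count in every library, so these rows refit the same counts. Areg had an unadjusted edgeR p of 0.0268 as a gene but 0.0754 as an isoform. For Egfr it held 95.8% and 98.3% in transgenic and 94.0%, 94.9% and 96.5% in wild-type corneas, and for Errfi1 79.4% and 78.4% in transgenic and 80.5%, 84.4% and 77.5% in wild-type corneas. The row named for Btc was at 0 counts in 4 libraries and 0.02 in wild-type cornea 3, so the Btc counts belong to transcripts that the isoform table does not name for it.

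The wider pathway also held no gene that passed. Of other receptors and ligands of the family, 0 of 6 tested were called and 3 had a log2 fold change above 0, with a median of 0.09. Erbb3, a receptor with little kinase activity of its own, had 173 and 155 CPM in transgenic corneas and 163, 122 and 145 CPM in wild-type corneas (log2 fold change 0.20 ± 0.13 SE, edgeR adjusted p = 0.858). Nrg2, a neuregulin ligand, had 7.83 and 7.80 CPM in transgenic corneas and 7.26, 5.58 and 7.60 CPM in wild-type corneas (0.20 ± 0.20 SE, edgeR adjusted p = 0.896).

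Genes that release ligands from the membrane had a median log2 fold change of 0.03, with 0 of 9 called. Adam17, the main sheddase of Areg, Tgfa and Hbegf, had 108 and 91.9 CPM in transgenic corneas and 119, 109 and 104 CPM in wild-type corneas. Timp3, a matrix-bound inhibitor of ADAM17, had 30.0 and 41.5 CPM in transgenic corneas, above the 21.2, 16.6 and 25.4 CPM of wild-type corneas. Its log2 fold change was 0.76 ± 0.20 (SE), with an unadjusted p of 0.00637, and it did not pass (edgeR adjusted p = 0.531). Stromal, pigment-cell and endothelial markers were mostly higher in the same 2 corneas, as given above, and their part in this value was not tested. Rhbdf2, a partner of ADAM17 in its transport, had a log2 fold change of -0.16 ± 0.11 (SE; edgeR adjusted p = 0.860).

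Negative regulators were split evenly, with 9 of 18 tested members above 0, 0 called and a median of 0.00. Spred2 and Spry2, inhibitors of the RAS to ERK route, had log2 fold changes of 0.31 ± 0.15 and -0.22 ± 0.12 (SE; edgeR adjusted p = 0.820 and 0.835). Signal transducers were split likewise, with 10 of 20 above 0, 0 called and a median of 0.01. Gab2, a docking protein, had 0.38 ± 0.23 and Plcg1, a phospholipase, 0.14 ± 0.10 (SE; edgeR adjusted p = 0.839 and 0.861).

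Transcripts that respond to ERK had 5 of 12 members above 0, 0 called and a median of -0.17. Phlda1 had 167 and 150 CPM in transgenic corneas, below the 183, 188 and 182 CPM of wild-type corneas (log2 fold change -0.22 ± 0.09 SE, unadjusted p = 0.0415, edgeR adjusted p = 0.777). Lif, a cytokine, had 4.36 and 4.74 CPM in transgenic corneas and 6.25, 5.33 and 7.51 CPM in wild-type corneas (-0.48 ± 0.22 SE, edgeR adjusted p = 0.800). Over the 5 lists, groups did not overlap in 11 of 65 genes. In 6 (9.23%) both transgenic values lay above and in 5 (7.69%) below all wild-type values, against 12.0% and 10.7% of all genes.

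**Figure D5:**
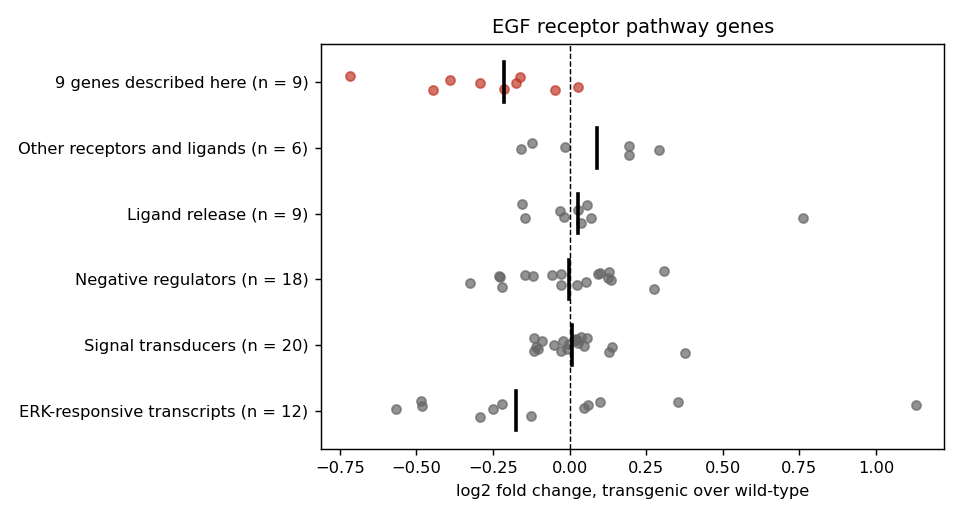
Log2 fold change (transgenic over wild-type) of the 9 genes (red) and of tested genes in 5 related lists (grey), with the median of each as a black bar; vertical scatter within a row has no meaning. Medians of the related lists lie between -0.17 and 0.09 and that of the 9 genes at -0.21, and no point passed the test.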

How the data were processed

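Whole-cornea RNA was sequenced from 2 transgenic and 3 wild-type corneas. The authors deposited tables of expected counts per gene and per isoform, neither normalized nor scaled by length, as the column totals show. Per the submitters' processing notes, which state no role or order, the rat build was rn6 and the tools were RSEM 1.2.28, STAR 2.5.3a, edgeR 3.28.0, DESeq2 1.26.0, fastp and FastQC. No source used here states whether strand was kept, so antisense reads may be counted with a gene. Columns were matched to samples by their labels, and 0 were left out.

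Expected counts were rounded, filtered by filterByExpr (minimum count 10), scaled by TMM and tested with edgeR 4.0.16 (quasi-likelihood, robust, two-sided) in R 4.3.3 over all genes, without the replicate number as a block. The SE is the size of the log2 fold change over the root of its F statistic. CPM uses the TMM-scaled library size. Alternatives were RLE scaling, no filter, DESeq2 1.42.0, limma 3.58.1 (voom), each library left out, a replicate block and scaling to epithelial markers. The procedure was tested on simulated data with 50 changed genes at each size. It recovered 13 of 50 at 1.5-fold, 35 at 2-fold, 46 at 4-fold and 48 at 8-fold. Most changes of 1.5-fold were thus missed. All changed genes lay in the same simulated data set, where many true differences ease the adjusted threshold. They were drawn from all tested genes, while Hbegf, Ereg and Epgn varied more than most genes of like level. Recovery of such genes in the real libraries may thus be lower. Genes and lists were chosen with earlier results of these data known. All 9 genes are named, with the 2 genes of smallest p in each related list; Adam17 was added after its values were seen, and 1 gene of a related list is not reported here. No protein sequences were used here. Poisson intervals cover counting error only.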

Additional observations from a re-analysis of the deposited data

How the results depend on the processing

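None of the 9 genes passed under any of the 10 alternatives (adjusted p of at least 0.326), and 85 of 90 values kept their sign. The sign turned for Egfr without wild-type cornea 3 (0.0261), without transgenic cornea 2 (0.0373) and with the replicate block (0.0282). Wild-type cornea 3 is the only library numbered 3, so the block takes it out of the genotype comparison. The block is therefore close to a repeat of leaving that cornea out (Areg -0.836 and -0.816), not a separate check. Without wild-type cornea 1 the sign turned for Ereg (0.0121) and Epgn (0.00319). Why single libraries turned the sign was not tested. Without single libraries the log2 fold change ran from -0.14 to 0.0373 for Egfr, -0.629 to 0.0121 for Ereg and -0.454 to 0.00319 for Epgn. Genes of the module with an unadjusted edgeR p under 0.05 numbered 1 in the main test, where 841 of 13304 genes (6.32%) were under it. Without wild-type cornea 1 or 2 they numbered 0, where 783 of 13088 and 566 of 13223 genes were under it. Without wild-type cornea 3 they numbered 4 (Areg, Ereg, Epgn and Errfi1), where 1441 of 13224 genes were under it. With the replicate block they numbered 5, with Hbegf added, where 1370 of 13304 genes were under it. Where a transgenic cornea was left out, the lone one was assumed to vary like the wild-type corneas. Genes called over the whole table numbered 1 in the main test, 2 without the filter, 53 by DESeq2, 16 with the replicate block and 2 to 36 with a library left out (6, 4 and 2 without wild-type cornea 1, 2 and 3, 36 and 5 without transgenic cornea 1 and 2). The replicate block called 0 members or isoforms of them. The labels share only numbers: deviations from the group means of same-numbered libraries correlated across genes at 0.000625 (number 1) and -0.105 (number 2), so no pairing was used. Mean ligand sums were 125 CPM in transgenic and 158 CPM in wild-type corneas when scaled by library total, and 102 to 146 CPM and 144 to 178 CPM with a library left out; omitting 1 of so few libraries cannot move a mean by 1 SD. Depth limits Btc and Areg most, at 35 to 129 counts per library.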

Other observations

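Wild-type cornea 1, the library with the highest value of 5 of the 6 ligands, also had the highest Krt17, a keratin of stressed and wounded epithelium singled out after its values were seen. Krt17 had 1.5 and 2.48 CPM in transgenic corneas, against 11.9, 3.08 and 3.23 CPM in wild-type corneas 1 to 3. Other markers of superficial and wounded epithelium went in several ways. Krt13 was lowest in wild-type cornea 1 (1608 CPM). Upk1b had 842 and 745 CPM in transgenic corneas, below the 930, 1014 and 956 CPM of wild-type corneas. The 7 measured markers of that list, led by Krt13, summed to 4049 and 6401 CPM in transgenic corneas and 3807, 5055 and 5328 CPM in wild-type corneas. The mean log2 level of 5 tested ones, Krt17 among them, was taken relative to the wild-type mean. It was -0.35 and -0.14 in transgenic corneas and 0.10, -0.02 and -0.08 in wild-type corneas. The 5 lens markers summed to 8.95 and 7.0 CPM in transgenic corneas, against 61.1, 14.9 and 12.8 CPM in the same order of wild-type corneas. The sums of 8 leukocyte markers were 66.3 and 68.0 CPM in transgenic and 81.1, 84.7 and 71.2 CPM in wild-type corneas. The groups overlapped in each of the 6 tested ones, of which 2 had a log2 fold change above 0 and 4 below. Their mean log2 level, relative to the wild-type mean, also overlapped: -0.19 and 0.17 in transgenic and 0.25, -0.13 and -0.12 in wild-type corneas. Goblet-cell markers were near 0: 5 of them summed to 1.54 and 2.64 CPM in transgenic and 2.85, 0.440 and 3.73 CPM in wild-type corneas, with Tff1 and Tff3 at 0 counts in every library. The part of these cells in the ligand values was not tested.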
